A study of Homo sapiens with 8 samples.

Results

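Subtelomeric open chromatin was described across 8 chromatin fractions of 293T, a line derived from human embryonic kidney and transformed further with the SV40 large T antigen. A subtelomeric region was a stretch within 500 kb of an autosome's first or last base in the hg19 assembly that a peak of at least 1 of the 8 lists covered. The short-arm starts of chromosomes 13, 14, 15, 21 and 22 were left out, so 39 chromosome arms remained. Overlapping peaks (1 bp or more) of any lists were joined, which gave 316 regions of 36845 in the genome. Regions within 20 kb of a chromosome end, called end regions here, numbered 8, and the other 308, at 20 to 500 kb, are called inner regions.

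The 8 libraries came from cells that had been crosslinked, permeabilised and treated with a transposase, which inserts sequencing adapters into accessible DNA (ATAC-seq). The material was incubated with Q Sepharose, an anion exchanger. The unbound flow-through (FT) and the eluates of successive washes with 20, 100, 200, 300, 500, 700 and 1000 mM NaCl (G20 to G1000) each gave 1 library. No fraction had a replicate, so the tests compare 8 libraries, not salt conditions.

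Telomeres are repeats of the sequence TTAGGG that cap the chromosomes and are bound by the shelterin complex. The subtelomeres next to them are mosaics of segments that are shared between several chromosome arms, and they pass into single-copy DNA with genes. The repeat array itself is mostly missing from the assembly, and the RNA called TERRA is transcribed from the subtelomere into it. Reads from a segment shared between arms cannot always be assigned to 1 arm, and no source used here says how multiply mapped reads were treated. The values of regions close to the chromosome ends are therefore uncertain as to their arm.

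The lists held between 8102 peaks (G700) and 22807 peaks (FT). The libraries differed in background as well. The genome-wide background recovered from the peak statistics ran from 0.239 reads per position in G200 to 0.662 in FT. It is not a measure of depth alone. The peaks of the G200 list carry another fraction name within the file, and those of the FT list are also named differently there. Groups follow the sample titles, and whether the 2 names mean the same fractions could not be read from the labels.

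Open regions were denser in the subtelomeres than in the rest of the autosomes. The share of regions called in all 8 lists was near that of the whole genome, and it varied with the window, the distance and the arm. The 39 windows of 500 kb, 19.5 Mb in all, held 16.2 regions per Mb, against 12.2 per Mb in the remaining autosomal sequence. Regions called in all 8 lists stood at 2.31 per Mb against 1.38 per Mb. Of the 316 subtelomeric regions, 45 (14.2%) were called in all 8 lists, where 11.5% of all regions of the genome were. In a single list, 101 were called (32.0%), against 40.7% of all regions. Unsequenced bases were counted in both lengths, at chromosome ends in the windows and at centromeres and the left-out short arms in the rest, so both densities are low estimates. Regions are not replicates, and no test was made of these shares.

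The density was not even along the windows. Within 200 kb of the end there were 94 regions, or 12.1 per Mb, which is about the level of the remaining autosomes. Unsequenced bases at chromosome ends count towards this length, so the value there is a low estimate. How much sequence each bin holds was not determined. Between 200 and 400 kb there were 166, or 21.3 per Mb, and between 400 and 500 kb there were 56, or 14.4 per Mb. In 50 kb bins the lowest count was 19, next to the end, and the highest was 49, at 350 to 400 kb, where 24 arms contributed and 20p gave the most with 5. The share called in all 8 lists fell over these 3 zones, with 18.1% of the regions within 200 kb, 13.9% of those at 200 to 400 kb and 8.93% of those beyond. It was uneven in 50 kb bins, with 6 of 19 next to the end, 2 of 23 at 150 to 200 kb and 11 of 41 at 250 to 300 kb.

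**Figure D1:**
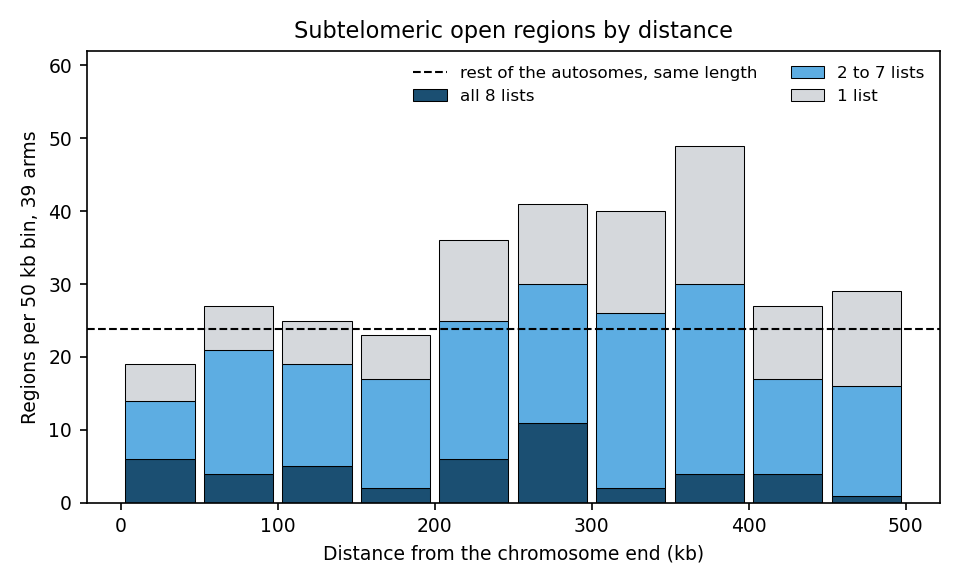
Subtelomeric open regions in 50 kb bins of distance from the chromosome end (x axis, kb), counted over 39 arms (y axis) and coloured by the number of lists that called them. The dashed line is the count that the density of the remaining autosomes, 12.2 regions per Mb, gives for the same length. Bins at 200 to 400 kb lie above it with 36 to 49 regions, and the bin next to the end lies below it with 19. Unsequenced bases at the chromosome ends count towards the bins, so the counts nearest the end are low estimates.

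The subtelomeres differed widely between chromosome arms. Of 39 arms, 38 held at least 1 region and 22 held a region called in all 8 lists, with a median of 7 regions per arm. The long arms, 22 in number, held 217 regions and the 17 short arms held 99. The 5 fullest arms held 89 regions, or 28.2% of all. The most were on 19q with 23 regions, on 5q with 20 and on 22q with 17. No region was called on 3p and 1 was called on 14q. Each of 1p, 2p, 11q and 17p had 2.

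The end of 19q also had the largest number of shared regions of any arm. All 8 lists called 8 of its 23 regions (34.8%), which is 17.8% of the 45 shared subtelomeric regions. On 5q it was 5 of 20, and on 22q it was 1 of 17. The arms 20q and 20p, with 15 and 12 regions, had none called in all 8 lists. Arms with similar counts thus differed in how many fractions called them.

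An annotation of the build was not used here, so genes could not be assigned to peaks. As context, the order of RefSeq genes in the GRCh38.p14 assembly gives the outermost protein-coding genes of the long arms. Genes of other types were not listed. Distances from the end were not checked, so a gene may lie outside the 500 kb window. The outermost protein-coding genes of 19q are MZF1, UBE2M, CHMP2A and TRIM28, and 4 of the outermost 10 have ZNF symbols, given to zinc finger genes. The count is by symbol, and zinc finger genes with other symbols were not counted. More of the outermost 10 have such symbols on 12q (7, with 11 regions) and on 8q (6, with 13 regions). TRIM28 is the co-repressor that zinc finger proteins of the KRAB class recruit, and UBE2M is the NEDD8-conjugating enzyme. On 5q they are OR4F3, an olfactory receptor, TRIM52, RACK1, a ribosomal scaffold protein, and TRIM41. On 22q they are RABL2B, ACR, the sperm protease acrosin, SHANK3, a synaptic scaffold, and ARSA, the lysosomal arylsulfatase A. On 14q, with its single region, the outermost such gene is TMEM121.

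**Figure D2:**
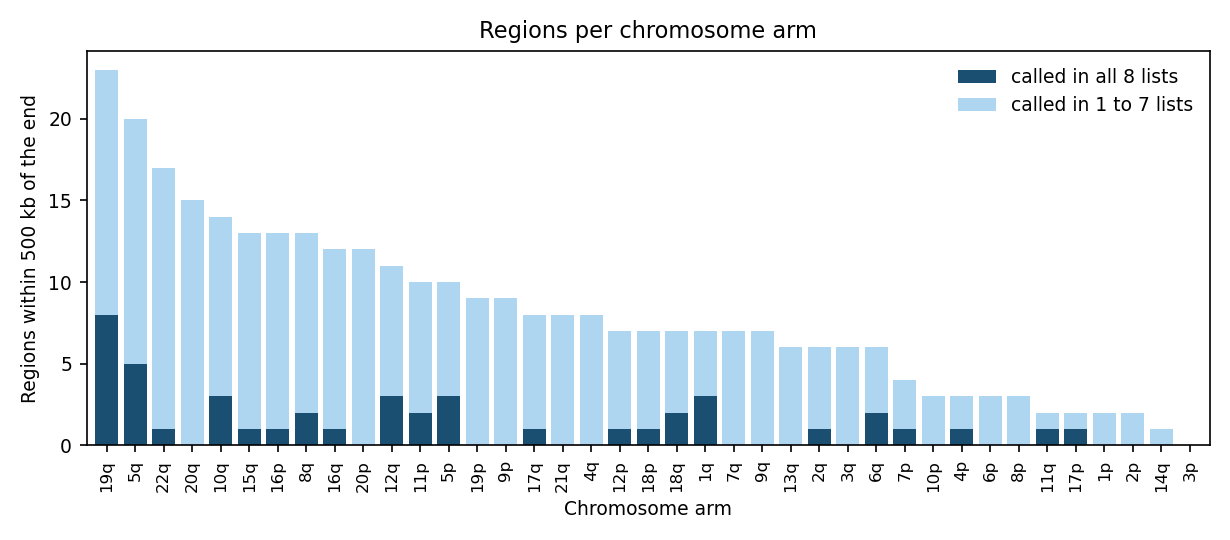
Number of open regions within 500 kb of the end of each of 39 chromosome arms (y axis), ordered by count, with regions called in all 8 lists in dark blue and the others in light blue. The arm 19q leads with 23 regions, 8 of them shared, and 3p has none.

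Each fraction gave subtelomeric peaks in about the same proportion. FT had 236 such peaks, or 1.03% of its list (95% Clopper-Pearson interval 0.908 to 1.17). G20 had 194 (0.996%), G100 had 138 (1.04%), G200 had 153 (0.957%) and G300 had 190 (0.964%). G500 had 113 peaks (1.09%, interval 0.898 to 1.31), G700 had 82 (1.01%) and G1000 had 97 (0.947%, interval 0.768 to 1.15). All 8 intervals overlapped, and each was above 0.677%, the windows' share of the autosomal bases. The denominators differ, because the list shares count the peaks of all sequences and 0.677% covers autosomal bases only, unsequenced ones included. When only the 8102 strongest peaks of a list were kept, by the authors' −log10 q, the share was between 1.01% (G700) and 1.22% (FT and G20), again with overlapping intervals. A salt dependence of the subtelomeric share was not detectable at this depth.

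**Figure D3:**
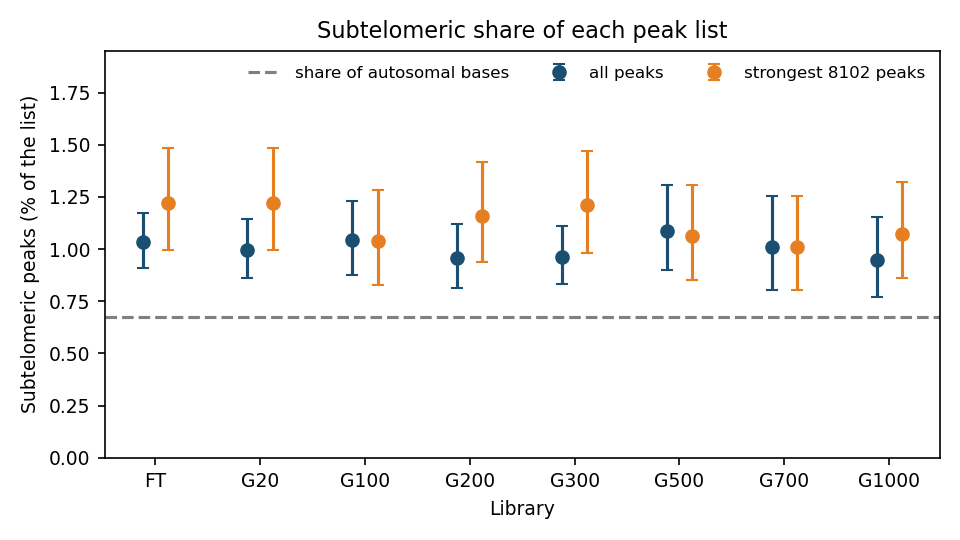
Share of each library's peaks that are subtelomeric (y axis, percent) with 95% Clopper-Pearson intervals, for all peaks (blue) and for the 8102 strongest peaks of each list (orange). The 8 libraries lie between 0.947% and 1.09% with all peaks, and every interval lies above the dashed line at 0.677%, the share of autosomal bases. The list shares count the peaks of all sequences, while the dashed line covers the autosomes only.

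Within each list the subtelomeric peaks were somewhat stronger than the list as a whole. Their median −log10 q was 6.98 in FT against 5.89 for all peaks, 7.24 against 6.03 in G20, and 7.16 against 5.79 in G300. In G100 the values were closest, at 5.65 against 5.37. Their median lay at the 52.9th percentile of the list in G100 and up to the 61.4th in G200. Peak width was similar, for example 531 bp against 527 bp in FT and 410 bp against 418 bp in G700. The nearest neighbouring region was a median of 14.8 kb away, against 16.9 kb on the rest of the autosomes.

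Longer lists called more of the regions, with G20 and G300 close together. FT called 235 of the 316 (74.4%), G20 189, G300 187, G200 149, G100 135, G500 112, G1000 96 and G700 80 (25.3%). On the rest of the autosomes FT called 61.4% of the regions and G700 called 21.7%, and the subtelomeric share was the higher one in all 8 lists. Of the 101 regions of a single list, 41 were from FT, 19 from G300, 16 from G20, 11 from G100, 8 from G200, 5 from G500, 1 from G1000 and 0 from G700. The median −log10 q of those from FT was 3.66, and in the other 6 lists with such regions it was between 1.87 (G1000) and 3.17 (G20).

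Regions called at low salt but not at 500 mM or more were about as frequent here as elsewhere. Of the 316, 12 had a peak in each of FT, G20 and G100 but in none of the washes at 500 mM or more, and 3.1% of all regions had this pattern. The reverse pattern was called in 0 of 316, where 0.00543% of all regions were. The 12 lay on 9 arms, 4 of them on 16p and none on 19q, and 11 were also called in G300 and 7 in G200. They were weaker than the shared regions, with −log10 q values in FT, G20 and G100 that had a median of 5.55 against 14.3. The strongest by its mean −log10 q was chr16:278803-279552, with 17 reads over its summit in FT and 16, 9, 7 and 9 reads in the washes from 20 to 300 mM. A summit at the genome-wide background had been called with as few as 3 reads in G200, 5 in FT and 4 in each of the other 6 lists. Each of these 3 libraries had a higher background than each of G500, G700 and G1000, and the part of depth in these calls was not tested.

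The 8 end regions lay at 7 chromosome ends, all between 9.996 and 11.5 kb from the outermost base of the assembly. Unsequenced bases at the ends count towards these distances, so they are not distances from the first sequenced base. The next region inwards was on 7p at 24.0 kb, which fell outside the 20 kb limit. At the outer limit, a region on 20q at 499.0 kb was the last inside and one on 10p at 501.0 kb the next outside. The end regions were of 2 kinds. Those on 5p and 12q were called in all 8 lists and were among the strongest peaks of the subtelomeres, and the end of 1p was called in 6. The other 5 were called in 1 to 3 lists each.

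The end of 12q, chr12:133841529-133841891, was a narrow peak of 363 bp. Its summit lay within 72 bp in all 8 lists, and within each list it was above at least 98.4% of the peaks (FT) and at most 99.8% (G300) by −log10 q. FT had 33 reads over its summit. The washes from 20 to 1000 mM had 65, 56, 38, 74, 71, 28 and 39 reads, in order of salt. FT, the library with the highest background, thus had the second-lowest number, and G500 had nearly as many as G300. Ordinary regions, 4033 in number, were called in all 8 lists. They lay outside the subtelomeric windows and away from the longest peak-free stretch of a chromosome. Reads were set against the number expected from them. Relative to that, FT was at 0.479 times (0.329 to 0.672, a 95% Poisson interval) and G500 at 1.87 times (1.46 to 2.36). Both differed from the other 7 libraries (two-sided exact binomial test with Benjamini-Hochberg adjustment over 33592 tests, adjusted p = 0.000119 for FT and 0.000135 for G500). The remaining libraries lay between 0.754 times in G200 and 1.25 times in G100, and none of these passed the test.

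The end of 5p, chr5:10058-11759, was wide instead, with 1702 bp, and its summits were spread over 1002 bp. FT had 45 reads, and the washes had, in order of salt, 80, 99, 59, 124, 96, 49 and 62 reads. FT had the fewest reads although its genome-wide background was the highest. The background around the summit was 5.58 reads in FT and 14.8 in G300, far above the genome-wide values of 0.662 and 0.497. FT had 0.429 times the expected reads (0.313 to 0.575), G500 had 1.66 times (1.35 to 2.03) and G100 had 1.46 times (1.18 to 1.77). The exact binomial test against the other 7 libraries gave an adjusted p of 2.06e-09 for FT, 0.000415 for G500 and 0.0275 for G100. The G100 call was lost without FT (1.30 times, adjusted p = 0.454), without G200 (1.41 times, adjusted p = 0.129) and without G20 (1.41 times, adjusted p = 0.0766) in the same exact test. G300, at 1.23 times, and the other 4 libraries, at 0.770 to 1.05 times, did not pass.

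Both shared end regions therefore had FT lowest and G500 highest relative to ordinary regions. Of the 4199 regions tested, FT was lower in 0.31% and G500 was higher in 0.167%. For G100 the share called higher was 0.167%, and a call for any library was made in 2.5% of the regions. Summed over both regions, FT had 0.449 times the expected reads (95% Poisson interval 0.355 to 0.560), G500 1.74 times (1.49 to 2.03), G100 1.38 times (1.17 to 1.61) and G300 1.19 times (1.03 to 1.36). G200 had 0.764 times (0.619 to 0.931) and the intervals of G20, G700 and G1000 included 1. G100 and G500 were high and G200, between them in salt, was low, so the values did not follow the salt order, although G200 turned to 1.18 times with background scaling. Over the 6 of the 19 regions within 50 kb of an end that were called in all 8 lists, the sum was 0.735 times in FT and 1.40 times in G500. These 6 include both shared ends. Among the rest, FT was at 0.888 times on 7p, 0.970 times on 10q and 1.51 times on 1q. G500 was at 0.874, 1.14 and 0.709 times there, and the 19q region lay between 0.766 and 1.31 times over the 8 libraries. The spread of the ordinary regions was 1.27 times that of counting in FT and 1.58 times in G200, so the p-values and intervals of these libraries are too small, while in G500 it was 0.884 times.

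When the libraries were summed into a low side (FT, G20 and G100) and a high side (G500, G700 and G1000), the end of 5p was among the 0.0714% of regions that were higher on the high side. Its low side had 0.661 times the reads of its high side after scaling (exact binomial test, adjusted p = 0.00879). Without FT the value was 0.862 (adjusted p = 1 in the exact test) and without G500 it was 0.803 (adjusted p = 1 in the exact test), so the call rested on these 2 libraries. At the end of 12q the ratio was 0.682 and did not pass (adjusted p = 0.197 in the exact test).

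The remaining end regions were weaker. The end of 1p, chr1:9997-10517, had 12 reads in FT and, in order of salt, 16, 20, 27, 24 and 9 reads in 5 of the washes, and was not called in G200 or G1000. Its −log10 q was 22 in both G300 and G500 and 6.58 in FT, so FT was again low, although an uncalled list leaves no count to test. The other end of that chromosome, chr1:249239977-249240458, was called in G20 with 21 reads and in G500 with 13. On 18p, chr18:11159-11868 was called in FT with 14 reads, in G300 with 7 and in G200 with 6. On 21q, 2 neighbouring regions were called in FT with 11 and 12 reads, and 1 of them in G20 with 5. The end of 9p was called in G300 alone with 6 reads. FT had the most reads among the lists that called the 18p and 21q regions, but 1 of the 21q regions was a member through FT alone. On 1q and 9p FT was not called. Lists without a call leave no count, so a pattern over these weaker end regions could not be read.

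**Figure D4:**
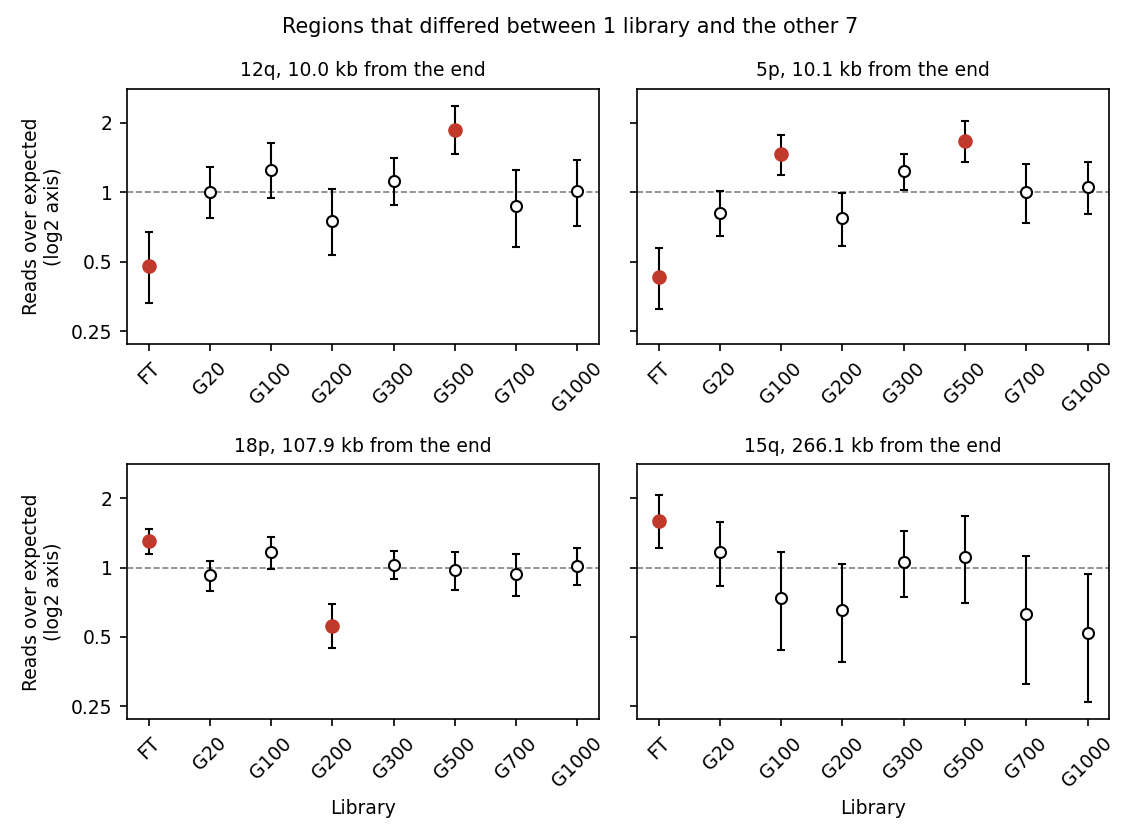
Reads over the expected number (y axis, log2 scale) in each of the 8 libraries (x axis) for the 4 subtelomeric regions past the test's threshold, with 95% Poisson intervals; filled red points have an adjusted p under 0.05. FT is lowest and G500 highest at the ends of 12q and 5p, while FT is highest at the 18p and 15q regions.

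Among the 43 inner regions with reads in all 8 libraries, 2 passed the test against the other 7 libraries, 1 of them in 2 libraries. Over all regions tested, 105 of 4199 (2.5%) passed in any library. The region on 18p at 107.9 kb from the end, chr18:107889-109327, was the strongest of all subtelomeric regions by mean rank of −log10 q. The background around its summit was 26.9 reads in FT and 9.49 in G200, against genome-wide values of 0.662 and 0.239. Its fold over background in FT was 9.61, below the 14.8 at the end of 12q. Whether multiply mapped reads added to this background was not tested. FT had 267 reads there, and the washes from 20 to 1000 mM had 178, 155, 84, 203, 110, 90 and 117 reads. It stood above 99.4% (G200) to 99.9% (FT) of the peaks of a list. G200 was lowest, with 0.559 times the expected reads (0.446 to 0.692; exact binomial test, adjusted p = 3.89e-07), in a test where 1.14% of all regions were lower in G200. FT had 1.30 times (1.15 to 1.47; exact binomial test, adjusted p = 0.00157), where 0.595% of all regions were higher in FT. Without G200 the FT value was 1.22 times and did not pass (adjusted p = 0.112 in the exact test). Scaled to the background instead, FT stood at 0.990 times and G200 at 0.863 times, and neither passed.

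On 15q, chr15:102264060-102265253, 266.1 kb from the end, was higher in FT. FT had 60 reads, and the washes, in order of salt, had 41, 18, 18, 38, 23, 11 and 11 reads. FT had 1.60 times the expected reads (1.22 to 2.06; exact binomial test, adjusted p = 0.0282) and G1000 had the lowest value, 0.522 times. The call was lost without G100 (1.55 times), G200 (1.52 times), G700 (1.53 times) or G1000 (1.51 times), where the adjusted p of the exact test was 0.0531 to 0.141. Over its 8 alternatives the adjusted p of the exact test ran from 0.00792 to 0.508.

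Other strong inner regions passed in no library, some of them over as wide a range of values but on fewer reads than the 18p region. The 10 subtelomeric regions with the highest mean rank were the shared ends of 5p and 12q, the 18p region and 7 more, of which 6 are given here. On 11q, chr11:134721598-134722051 had summits within 12 bp in all lists, with 38 reads in FT and 50, 46, 66, 60, 49, 23 and 38 reads in the washes, in order of salt. FT was lowest against the expected number, at 0.602 times, just outside the threshold (adjusted p = 0.0521 in the exact binomial test). G200 was highest there, at 1.43 times, with G500 at 1.41 times. On 12p, chr12:95325-95742 had 44 reads in FT and 47, 47, 36, 59, 49, 21 and 42 reads in the washes. G500 was highest there, at 1.51 times the expected reads, and FT was lowest, at 0.747 times. Neither passed (adjusted p = 0.325 for G500 and 0.796 for FT in the exact binomial test). FT lowest with G500 highest was thus not limited to the 2 shared ends.

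On 10q, chr10:135500444-135501193, 33.6 kb from the end, ranged from 0.691 times the expected reads in G200 to 1.34 times in G700. On 7p, chr7:23991-24492 ranged from 0.555 times in G200 to 1.56 times in G100 (smallest adjusted p = 0.341 in the exact binomial test). It is the next inwards after the end regions, and FT was at 0.888 times there, nearer to 1 than at either shared end. On 19q, chr19:59055049-59056100 ranged from 0.529 times in G500 to 1.48 times in G20, the opposite of the chromosome ends for G500 (smallest adjusted p = 0.204 in the exact binomial test). On 5p, chr5:415407-415926 ranged from 0.548 times in G700 to 1.23 times in G500.

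The widest subtelomeric region, the remaining one of the 10, was also among the most even. It was chr5:180648867-180650985 on 5q, 2119 bp long, and was formed from 13 peaks of the 8 lists. The strongest peak there was 2113 bp long in FT and 1987 bp in G1000, and 634 to 860 bp in the other lists. Relative to ordinary regions it lay between 0.789 times in G500 and 1.13 times in G300. The next widest, chr6:170707604-170709338 with 1735 bp and chr20:304712-306443 with 1732 bp, were each called in 7 lists, missing G100 and G700, respectively. Regions of 1 kb or more numbered 37, and the median width was 569 bp, against 528 bp on the rest of the autosomes.

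Summed, the inner regions lay close to the ordinary regions to which the libraries were scaled, but not when scaled to the background. Over the 43 regions, FT had 1.06 times the expected reads (95% Poisson interval 1.01 to 1.12), G100 1.05 times, G300 1.02 times, G500 1.01 times, G200 0.976 times, G20 0.965 times, G1000 0.939 times and G700 0.930 times. Apart from FT, every interval included 1. With background scaling the sum was 0.809 times in FT and 1.51 times in G200. Single inner regions ranged from 0.517 times (19q in G500) to 1.66 times (19q in G200), at a median of 172 reads over all 8 libraries together. G200 was the highest library in 10 of the 43 and the lowest in 7, and G500 was the lowest in 9 and the highest in 6, so no library stood to 1 side throughout. Of 344 tests of inner regions, 23 (6.69%) had an unadjusted p under 0.05, against 5.56% over all regions. Between the low and the high side, where 0.333% of all regions passed the exact binomial test, 0 of the 43 did. An unadjusted p under 0.05 was found in 5 of the 43 (11.6%), against 206 of all 4199 regions (4.91%).

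**Figure D5:**
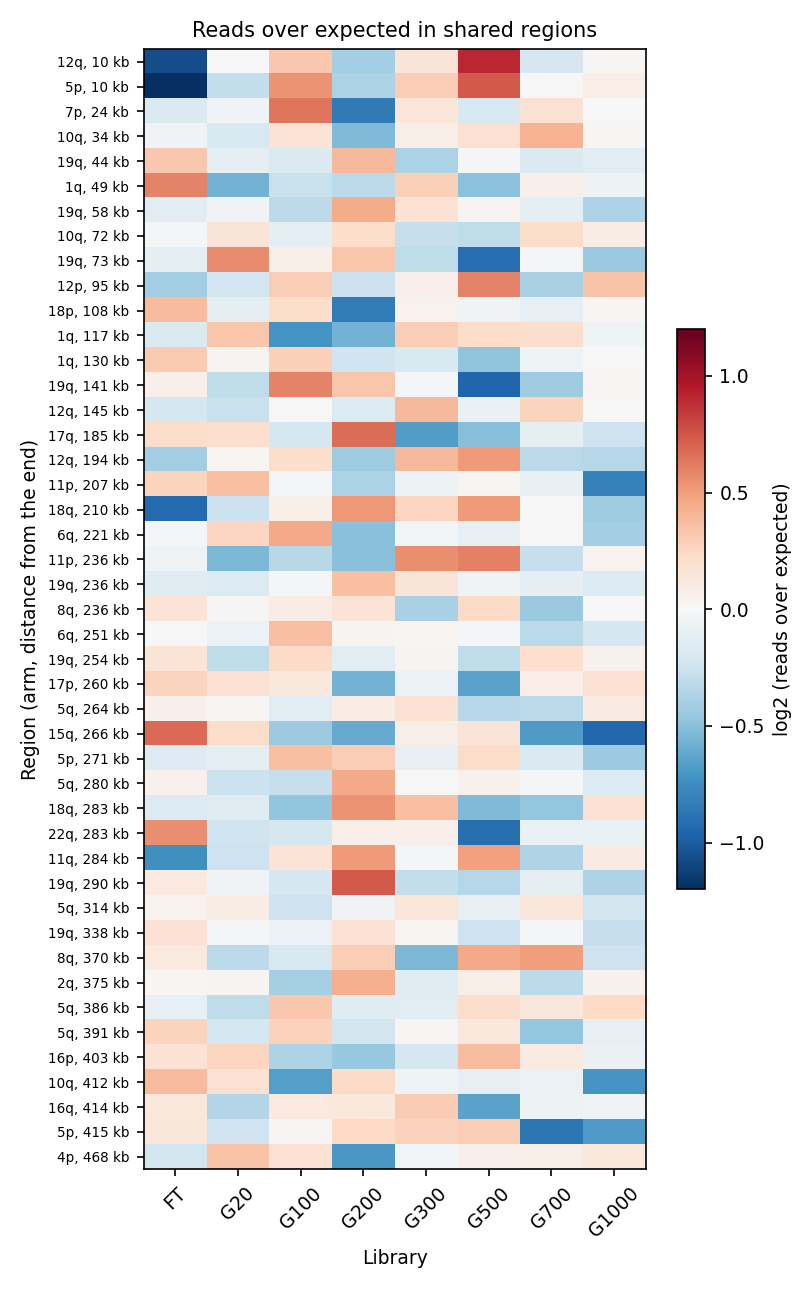
Reads over the expected number (colour, log2 scale) for the 45 subtelomeric regions called in all 8 lists (rows, ordered by distance from the chromosome end) in the 8 libraries (columns). The upper 2 rows, 12q and 5p, are dark blue in FT (0.479 and 0.429 times) and red in G500 (1.87 and 1.66 times), and the other rows lie between 0.517 and 1.66 times.

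Summits within a shared inner region lay close together. For the 40 inner regions with exactly 1 peak in each list, the 8 summits spanned a median of 218 bp, between 12 and 1014 bp, and on the rest of the autosomes the median was 229 bp. The wide end of 5p, at 1002 bp, was near the upper limit, and the narrow end of 12q, at 72 bp, was well below the median.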

How the data were processed

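ATAC-seq peak lists of 8 libraries, 1 per fraction, were used. Per the submitters' processing notes, Bowtie2 2.2.6, MACS2 2.2.1 and HOMER were used, and the builds named are hg19 and mm10; chromosome names in the files are those of hg19, whose chromosome lengths set the windows. Each list deposited by the authors gives, per peak, a score in whole numbers, the fold of the summit pileup over background (a ratio), a −log10 p, a −log10 q and the summit's offset in bp. Peaks had been called per library; the sources used here give no read filters or calling settings.

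Summit pileups, called reads here, were recovered as the whole number that reproduces both the deposited fold and −log10 p within 0.001 (Poisson). A single number was found for 98.9% (G20) to 99.8% (G300) of the peaks. The genome-wide background of a list is its lowest background value shared by several peaks. The highest pileup per region and library was tested for 4199 regions with reads in all 8 lists. Expected shares came from 4033 of them, on chromosomes 1 to 22 and X, over 1 Mb from the longest peak-free stretch. On the autosomes they lay outside the subtelomeric windows, while the ends of X were not left out. Exact binomial tests compared each library with the other 7, and the low with the high side (two-sided, Benjamini-Hochberg adjusted over all regions, threshold 0.05). Intervals (95%) cover counting error only. Code was tested on simulated data (Python 3.11.15, scipy 1.17.1, pandas 2.3.3).

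Regions named are the end regions, those past either threshold, the 10 of highest mean rank, the 3 widest, and the arms with the most and fewest regions; chr16:278803-279552 was chosen after its values were seen. Members and lists were chosen with earlier results of these data known. Alternatives were other windows, peak thresholds, merging, scaling and library sets. Sequences of the regions were not used here.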

Additional observations from a re-analysis of the deposited data

How the results depend on the processing

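The number of regions followed the window: it was 130 at 250 kb and 705 at 1 Mb, of which 23 and 85 were called in all 8 lists (inner regions 21 and 83). At equal list length it was 175, with 5 end regions. With end regions defined by 50 kb there were 19, of which 6 were called in all 8 lists. The share called in all 8 lists stayed above that of all regions in each of these settings: 17.7% (250 kb) and 12.1% (1 Mb) against 11.5%, and 21.7% against 18% at equal list length.

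Of the calls of 1 library against the other 7, 8 of 195 concerned subtelomeric regions. There were 25 of 1521 with background scaling, 3 of 149 without FT, 4 of 69 without G200, and 6 to 9 of 182 to 192 without any of the others (leaving out those 6 was chosen after seeing the data). The FT and G500 calls at the ends of 5p and 12q passed in all 8 alternatives run for each, with adjusted p in the exact binomial test of at most 0.0216 (G500 at 5p). The FT value of the 18p region turned to 0.990 times with background scaling. The low against high comparison, with 1 subtelomeric region among 14 calls, had 0 of 6 without FT, 0 of 12 without G500, 2 of 23 without G100 and 2 of 15 without G700.

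With background scaling the sum over end regions was 0.342 times in FT, and in G200 it turned to 1.18 times. With 50 kb it was 0.735 times in FT and 1.40 times in G500, a sum that still holds both shared ends. The sum over inner regions turned to 0.809 times in FT and moved to 1.09 times in G20 and 1.51 times in G200 with background scaling. In G200 it was 0.870 times with the 250 kb window and 1.04 times without the region with the most reads. In FT it was 1.02 times without that region. The cause of these shifts was not tested. No paired analysis was possible because each fraction had 1 library. Depth limits the inner regions, whose median of 172 reads is spread over 8 libraries.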
